A study of Mus musculus with 6 samples.

Results

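Adhesion G protein-coupled receptors (adhesion GPCRs) are surface receptors with a very long extracellular part, and 8 of their genes with described roles in blood cells or in cells that touch blood were followed here: Adgre1, Adgre4, Adgre5, Adgrg1, Adgrg3, Adgrg5, Adgrg6 and Adgrl4. They were chosen by symbol, as every probe set to which the array's annotation gives exactly 1 gene and that gene is one of the 8. This gave 7 probe sets for 7 of the 8 genes, out of 19938 genes with a probe set of their own. The annotation lists none for Adgrg5, which was therefore left unanalysed. The set was proposed with the comparison of the Hlx hairpin and the control hairpin already known, so the members' own differences are given as a description, with intervals and without p-values, and support nothing by themselves.

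The arrays measured transcripts in URE cells, a mouse leukaemia line described elsewhere as lacking most of the myeloid factor PU.1 in all cells alike. Both groups were infected with a lentivirus that carries a hairpin and a green fluorescent protein, sorted for fluorescence and cultured for several days. The 3 shControl arrays come from cells with a hairpin against luciferase and the 3 shHLX arrays from cells with a hairpin against Hlx, a homeobox gene, and the study's stated aim was the role of Hlx in blood cell differentiation and in tumours. All samples come from 1 cell line and the labels name 1 hairpin target per group, so an effect of the hairpin sequence and an effect of Hlx cannot be told apart.

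Most adhesion GPCRs are cut during folding, at a conserved site just outside the membrane, into an extracellular and a membrane-spanning fragment that stay attached. When a bound ligand or a mechanical pull separates them, a short stretch at the start of the membrane-spanning fragment acts as a built-in agonist, and signalling runs through G proteins, for some receptors to cyclic AMP. In blood, ADGRE1 is the macrophage antigen F4/80, ADGRE5 is the leukocyte antigen CD97, ADGRG1 (GPR56) is known from stem cells, leukaemia cells and cytotoxic lymphocytes, and ADGRG3 (GPR97) from granulocytes.

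The arrays were alike and the targeted gene differed little. Correlations across all genes ranged from 0.99783 to 0.99867 within groups and from 0.99421 to 0.99593 between groups. Hlx itself read 10.21, 10.12 and 10.20 on the log2 scale on the shControl arrays and 10.08, 10.06 and 10.17 on those labelled shHLX. The groups overlapped, with a difference of -0.07 (exact permutation test, two-sided, p = 0.2; the smallest value this design allows is 0.1). The direction of each comparison therefore rests on the labels. Of 13 myeloid blast markers, 11 lay above the 25th percentile of gene signal (6.13). Among them were the granule enzyme genes Elane, Prtn3 and Mpo, while Cd34 and the leukocyte antigen gene Ptprc lay below it. Most genes lie above that percentile by definition, as did 10 of 13 macrophage markers, so the count does not set these markers apart. The mean log2 signal over the 13 myeloid blast markers was 10.34 on each shControl array and 10.37 to 10.44 on the shHLX arrays.

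Of the 7 measured members, Adgre5 was higher and Adgrg1 and Adgrg3 were lower on the arrays labelled shHLX in limma's fit over all genes (adjusted p under 0.05), and 4 were not called. For comparison, 6.18% of all genes were called in that fit, 3.75% higher and 2.43% lower. The same 3 members were those whose values did not overlap between the groups, which held for 26.2% of all genes. These shares are background, and nothing is read from them, because the members were chosen with this contrast known. The median log2 change was near 0 both for the 7 members and for all genes (-0.01). All 3 called members changed by less than 1.5-fold.

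**Figure D1:**
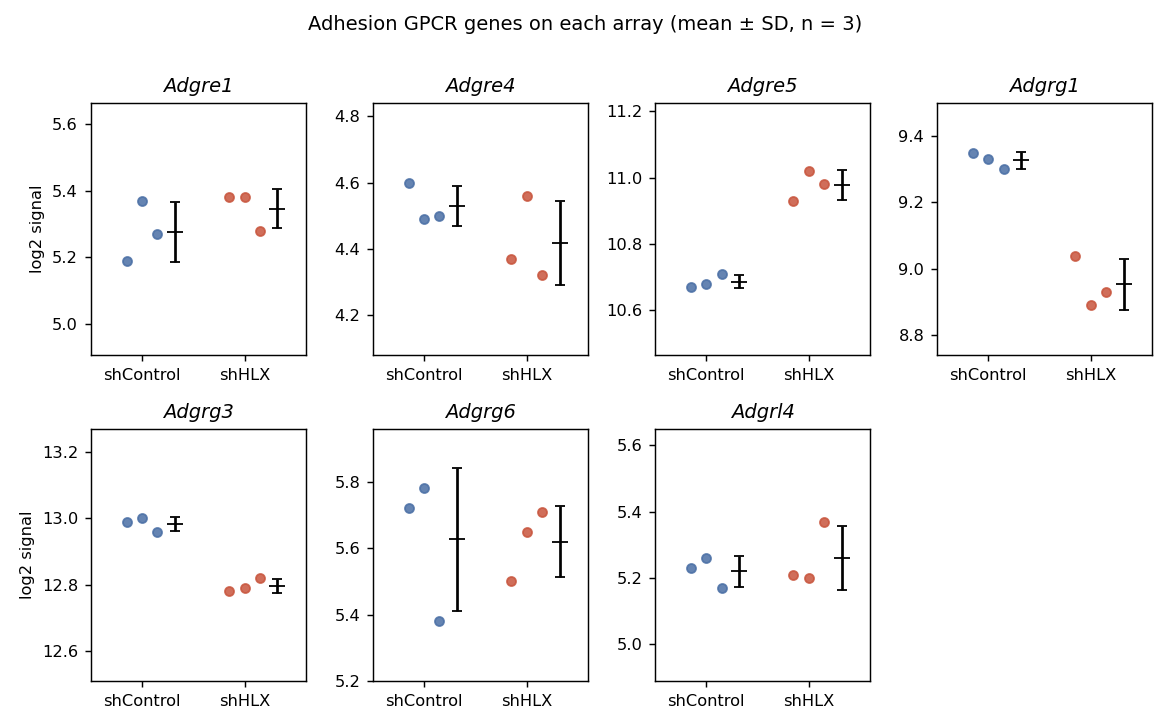
Log2 signal (vertical axes, all of equal span) of the 7 measured adhesion GPCR genes on each array, as points for the 3 shControl (blue) and 3 shHLX (red) arrays, with mean ± SD bars in black. Adgre5 lies higher, and Adgrg1 and Adgrg3 lie lower, on every shHLX array than on any shControl array, while the other 4 genes overlap.

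Among the receptors of the ADGRE group, which carry epidermal growth factor-like repeats at their outer end, Adgre5 was higher on the shHLX arrays and Adgre1 and Adgre4 were not called. Adgre5 encodes CD97, a receptor of most leukocytes that binds the complement regulator CD55. Its probe set (10580033, Entrez gene 26364) read 10.67, 10.68 and 10.71 on the shControl arrays and 10.93, 11.02 and 10.98 on the shHLX arrays. The lowest shHLX value lay above the highest control value, and the controls lay closer together than the shHLX arrays. The means were 10.68 ± 0.0198 and 10.98 ± 0.0463 (SD, n = 3 each), a 1.23-fold difference (95% confidence interval 1.14 to 1.32). Of all genes, 4.27% had a larger change in either direction. The log2 change stayed between 0.27 and 0.32 whichever array was left out, and the call was kept each time.

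Adgre1, the gene of the macrophage antigen F4/80, read 5.19, 5.37 and 5.27 on the shControl arrays and 5.38, 5.38 and 5.28 on the shHLX arrays. Adgre4, a related receptor gene of macrophages and dendritic cells, read 4.60, 4.49 and 4.50 against 4.37, 4.56 and 4.32. Both sets of values overlapped, with log2 differences of 0.07 (95% confidence interval -0.07 to 0.21) for Adgre1 and -0.12 (-0.28 to 0.04) for Adgre4. Both probe sets lay below the 25th percentile of gene signal (6.13), and without detection values it is unknown whether either was above background, so these intervals bound a difference of signal and not of RNA. None of 13 measured macrophage markers had a limma p under 0.05, adjusted or unadjusted, against 6.18% of all genes called at the adjusted threshold. With only 13 genes, no call is near that share, and nothing is read from this count. Of the 13, 3 lay below the 25th percentile of signal. Csf1r, the receptor gene of the macrophage growth factor, differed by -0.12 (SE 0.0616, limma adjusted p = 0.356), and Cd68 read 9.17 ± 0.0568 against 9.16 ± 0.028 (SD, n = 3 each).

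In the ADGRG group, Adgrg1 showed the largest difference of the 7. Its probe set (10574259, Entrez gene 14766) read 9.35, 9.33 and 9.30 on the shControl arrays and 9.04, 8.89 and 8.93 on the shHLX arrays. The groups lay well apart, and the shHLX arrays varied more among themselves (SD 0.0755) than the controls (SD 0.0279). The shHLX signal stood at 77.0% of the control (95% confidence interval 70.9% to 83.6%), and 2.72% of all genes had a larger change. Leaving out any 1 array kept the call, with a log2 change between -0.42 and -0.35.

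Adgrg3 encodes GPR97, a receptor of neutrophils and their precursors. Its probe set (10574276, Entrez gene 54672) read 12.99, 13.00 and 12.96 on the shControl arrays and 12.78, 12.79 and 12.82 on the shHLX arrays. Replicates were tight in both groups (SD 0.0214 and 0.0233), and all shHLX values lay below all control values. The signal stood at 87.8% of the control (95% confidence interval 82.2% to 93.8%). Although the log2 change hardly moved (-0.20 to -0.17), the call was lost when any 1 of the 6 arrays was left out and when each array was centred on its median.

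Adgrg6 encodes GPR126, a receptor known from the myelination of peripheral nerves. It read 5.72, 5.78 and 5.38 against 5.50, 5.65 and 5.71, so that the lowest and the highest of the 6 values were both controls. Its mean stood at 99.8% of the control (95% confidence interval 83.8% to 119%), the widest interval of the 7. Adgrl4 encodes ELTD1, a receptor of blood vessel endothelium. It read 5.23, 5.26 and 5.17 against 5.21, 5.20 and 5.37, and its shHLX signal was 103% of control (93.9% to 113%). Adgrg6 and Adgrl4 were also below the 25th percentile of signal.

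Adgrg1 and Adgrg3 are direct neighbours among protein-coding genes in the RefSeq order of mouse chromosome 8, with Adgrg5 on the other side of Adgrg1. Both were lower. None of the 6 nearest measured genes outside the receptor group was called, against 6.18% of all genes. With only 6 genes, nothing is read from this count. Those before the receptors were Ccdc102a (0.02), the docking protein gene Dok4 (-0.01) and the RNA polymerase subunit gene Polr2c (0.06), as log2 changes. Those after them were Drc7 (0.02), the kinesin gene Kifc3 (-0.19, SE 0.084, limma adjusted p = 0.277) and the ion channel gene Cngb1 (-0.06). The difference for Kifc3 was as large as that for Adgrg3 but its spread was wider.

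**Figure D2:**
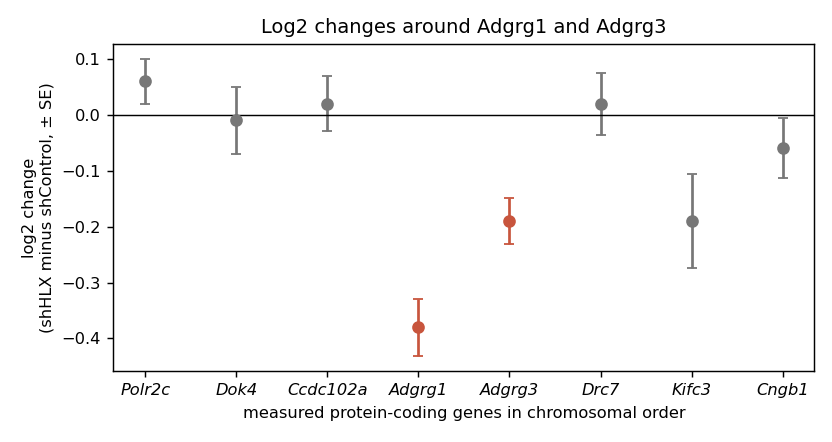
Log2 change (shHLX minus shControl, ± SE from limma) of Adgrg1 and Adgrg3 (red) and of the 3 nearest measured protein-coding genes on each side (grey), in chromosomal order and not to scale along the chromosome. Adgrg1 (-0.38) and Adgrg3 (-0.19) lie below 0, and of the 6 others only Kifc3 reaches -0.19, with a wider error bar.

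The sequences just before the annotated starts of these neighbouring genes are shown because both moved the same way. They are the 250 bases before each start, from RefSeq on GRCm38.p6, 5′ to 3′ on the plus strand, with matches to 3 short motifs in capitals. The table holds entries for 6 of the 8 members, 2 of them for Adgrg1 (chr8:94976859-94977108 and chr8:94984149-94984398) and 1 for Adgrg3 (chr8:95017442-95017691).
Adgrg1, first start: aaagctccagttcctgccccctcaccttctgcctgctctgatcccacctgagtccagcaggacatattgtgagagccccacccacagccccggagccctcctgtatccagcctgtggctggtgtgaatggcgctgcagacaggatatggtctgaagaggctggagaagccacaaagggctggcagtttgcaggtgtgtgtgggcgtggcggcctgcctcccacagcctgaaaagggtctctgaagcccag
Adgrg1, second start: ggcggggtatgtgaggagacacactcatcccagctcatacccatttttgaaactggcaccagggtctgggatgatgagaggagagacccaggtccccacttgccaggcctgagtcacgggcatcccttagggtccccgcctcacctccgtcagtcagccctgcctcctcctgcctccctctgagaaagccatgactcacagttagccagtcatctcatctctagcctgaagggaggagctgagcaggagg
Adgrg3: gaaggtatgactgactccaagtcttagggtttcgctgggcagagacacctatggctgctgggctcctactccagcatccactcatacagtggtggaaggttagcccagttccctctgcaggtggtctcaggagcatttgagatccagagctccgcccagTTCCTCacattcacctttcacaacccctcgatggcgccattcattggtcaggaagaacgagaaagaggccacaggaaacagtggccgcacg
The first motif, searched like the others on both strands, was GAGGAA, a core that ETS factors such as PU.1 bind. The second, a core bound by RUNX factors, was TGTGGT. The last, a core bound by GATA factors, was GATAAG. No matches of different motifs overlap here. The Adgrg3 window holds 1 match, TTCCTC, which is GAGGAA read on the minus strand, from 91 to 86 bases before the start. Neither Adgrg1 window holds any of the 3. Of 32851 promoter windows of the same length, 23.3% hold GAGGAA, 14.0% TGTGGT and 6.55% GATAAG, so a single match is common. Which start the URE cells use was not measured.

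Most of the rest of the adhesion GPCR family was not called. Of 21 other family genes with a probe set, Celsr2 and Adgrl2 rose, Celsr1 fell and 18 did not pass limma (adjusted p under 0.05). That is 3 of 21 against 6.18% of all genes, with a median log2 change of -0.02 beside -0.01 for all genes, and 10 of the 21 lay below the 25th percentile of signal.

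Celsr1 and Celsr2 encode relatives of the fly planar polarity protein Flamingo, which have cadherin repeats outside the cell. Celsr1 read 7.86, 7.96 and 7.98 on the shControl arrays and 7.49, 7.51 and 7.42 on the shHLX arrays, or 72.8% of control (95% confidence interval 67.1% to 79.1%, limma adjusted p = 0.00156). Celsr2 read 7.45, 7.44 and 7.46 against 7.80, 7.84 and 7.87, a 1.31-fold rise (1.22 to 1.40, limma adjusted p = 0.00137). The pair thus moved in opposite directions, with no overlap between the groups for either gene. Celsr3, the last of the group, differed by -0.11 (SE 0.0539) and did not pass (limma adjusted p = 0.333).

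Adgrl2 encodes a latrophilin, the receptor type to which ADGRL4 is related, and lies next to Adgrl4 among the measured genes of chromosome 3. Its brightest probe set read 10.57, 10.43 and 10.48 on the shControl arrays and 10.81, 10.79 and 10.88 on the shHLX arrays, a 1.26-fold rise (1.16 to 1.37, limma adjusted p = 0.00814). Adgrl2 has 8 probe sets, all of which were higher on average on the shHLX arrays, by 0.16 to 0.40 on the log2 scale. In a fit over all probe sets 4 of the 8 passed. Its call was lost without variance moderation, where limma gave an adjusted p of 0.0517 (alternatives spanned 5.03e-05 to 0.0517) and 2 of the 21 were called, and with a required fold of at least 1.5. Adgrl1 (0.07) and Adgrl3 (0.11) did not pass.

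**Figure D3:**
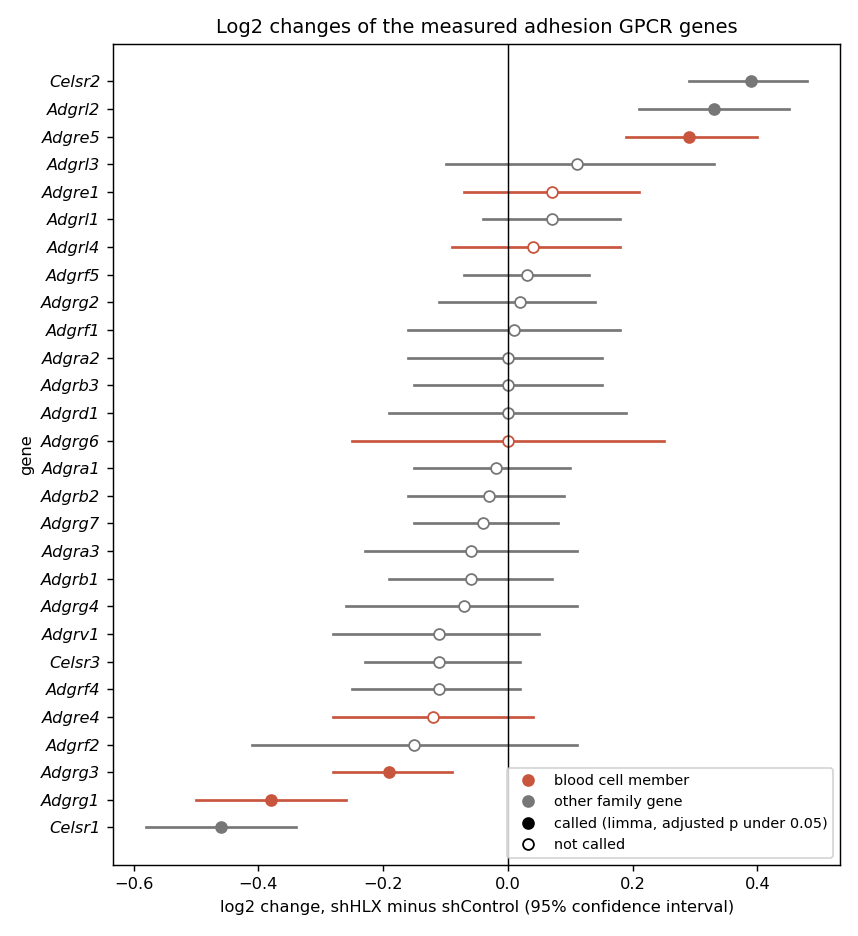
Log2 change (shHLX minus shControl) with 95% confidence interval for the 28 measured adhesion GPCR genes, ordered by change, in red for the 7 blood cell members and grey for the 21 others, with filled points for genes called by limma. Of the 28, Celsr2, Adgrl2 and Adgre5 are called to the right of 0 and Celsr1, Adgrg1 and Adgrg3 to the left.

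Genes of the proteins that bind these receptors were measured next. Of 15, Tgm2 rose and 14 did not pass, a share near the 6.18% of all genes. Tgm2 encodes transglutaminase 2, a crosslinking enzyme described as a partner of ADGRG1. It read 8.04, 8.18 and 8.31 on the shControl arrays and 8.85, 8.89 and 8.93 on the shHLX arrays. All shHLX values were higher, and the controls varied more (SD 0.133) than the shHLX arrays (SD 0.0396). The rise was 1.64-fold (95% confidence interval 1.46 to 1.83, limma adjusted p = 0.000806), on the same arrays on which Adgrg1 was 77.0% of control.

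The other partners of ADGRG1 did not pass. Cd81, a tetraspanin gene, differed by -0.08 (SE 0.0426), Cd9 by -0.08 (SE 0.0655) and the collagen gene Col3a1 by -0.04 (SE 0.0821). Among partners of ADGRE5, Cd55 read 4.21 ± 0.0367 against 4.27 ± 0.132 (SD, n = 3 each), below the 25th percentile of signal, and Thy1 differed by -0.09 (SE 0.0986). Itgb1, an integrin subunit gene, differed by 0.15 (SE 0.0421) and missed the threshold (limma adjusted p = 0.0914). Prnp, whose product is a ligand of ADGRG6, differed by 0.12 (SE 0.0603).

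On the cyclic AMP side, Rapgef3 fell and 14 of 15 measured genes did not pass, again a share near the 6.18% of all genes. Rapgef3 encodes EPAC1, which senses cyclic AMP and activates the GTPase Rap. It read 7.98, 7.95 and 7.94 on the shControl arrays and 6.72, 6.65 and 6.70 on the shHLX arrays. This put it at 41.5% of the control (95% confidence interval 38.8% to 44.5%, limma adjusted p = 3.64e-06), and the call was kept whichever array was left out. The list counted 2 calls without shControl 2 or without shHLX 2. The phosphodiesterase gene Pde4b differed by 0.22 (SE 0.0535, limma adjusted p = 0.0587) and the cyclase gene Adcy6 by -0.20 (SE 0.0704, limma adjusted p = 0.172). Gnas, the gene of the stimulatory subunit itself, had no probe set of its own.

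**Figure D4:**
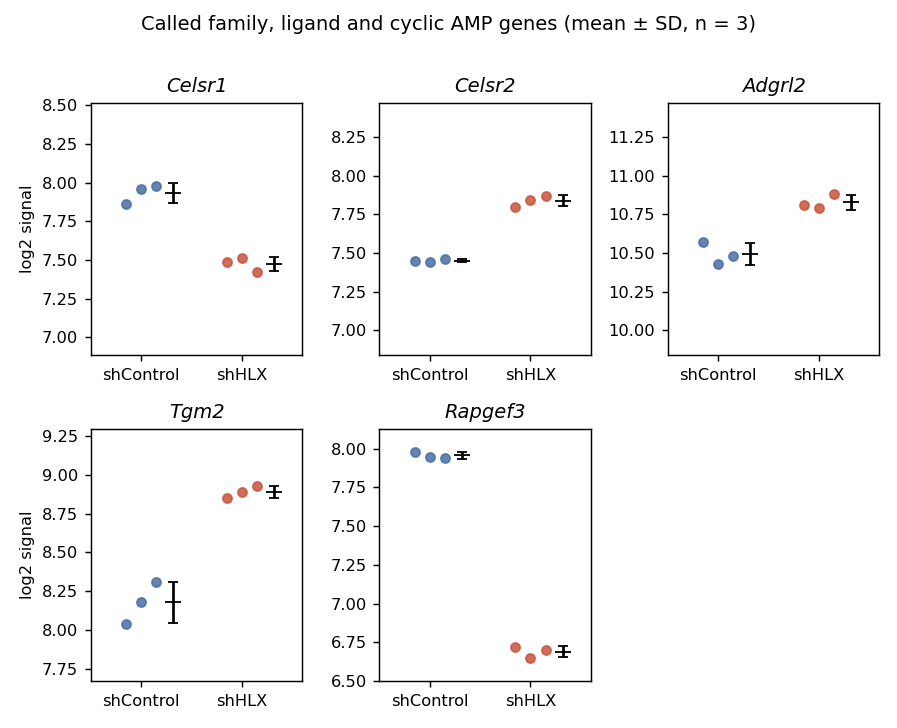
Log2 signal (vertical axes, all of equal span) on the 3 shControl (blue) and 3 shHLX (red) arrays, with mean ± SD bars in black, of the called genes of the wider family, the called ligand gene Tgm2 and the called cyclic AMP gene Rapgef3. Celsr2, Adgrl2 and Tgm2 lie higher and Celsr1 and Rapgef3 lower on every shHLX array than on any shControl array.

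Markers of cells in which these receptors are usually described were called in both directions, for 4 of 13 neutrophil and 4 of 13 myeloid blast genes, against 6.18% of all genes. Of the 13 neutrophil markers, Lcn2 (0.40) and Cxcr2 (0.20) rose and S100a8 (-1.09) and Cebpe (-0.73) fell, as log2 changes called by limma, beside the lower Adgrg3. Cxcr2 was among the 5 of these 13 below the 25th percentile of signal, and whether it was above background is unknown. Of 10 stem and progenitor markers Flt3 rose 1.56-fold, and of the 13 myeloid blast markers Cd33 (2.14) and Itgam (0.75) rose and Mpo (-1.46) and Kit (-0.73) fell, beside the lower Adgrg1. Of 15 endothelial markers Cdh5 fell by 2.68 and Pecam1 rose by 1.87 on the log2 scale, while Kdr (-0.11), Tek (-0.02), Erg (-0.09) and Adgrl4 did not pass. None of 12 markers of natural killer and cytotoxic T cells and none of 7 of eosinophils passed limma, with 2 and 1 at an unadjusted p under 0.05. Of the 12, 8 lay below the 25th percentile of signal, as did 4 of the 7, and whether these were above background is unknown. The mean log2 signal of the neutrophil markers was 7.07 to 7.14 on the shControl and 6.99 to 7.04 on the shHLX arrays, and that of the stem and progenitor markers 6.42 to 6.52 and 6.45 to 6.54. In such bulk samples fewer cells of a type and less RNA per cell cannot be told apart, and the part of these markers in the members' differences was not tested.

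Besides the genes around Adgrg1 and Adgrg3, the surroundings of the other members were examined. Over all members, 36 different neighbours were measured, the nearest 3 on each side. Of these, Adgrl2 and Aig1 rose and Gje1 fell, against 6.18% of all genes called, and the median log2 change was -0.02. Aig1, a gene of a lipid hydrolase, lies near Adgrg6 and rose 1.44-fold (95% confidence interval 1.28 to 1.62, limma adjusted p = 0.00516). Gje1, on the other side of Adgrg6, was 86.7% of control (limma adjusted p = 0.0498), but lay below the 25th percentile of signal and lost its call in 14 of 17 alternatives, among them the omission of any 1 array. Adgrg6 itself lay at 99.8% of control between them.

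The genes whose patterns over the 6 arrays were closest to those of the called members were found by the root mean square difference of log2 values centred on each gene's mean. Predicted or unnamed models, olfactory and vomeronasal receptor genes and small RNA genes were passed over, so closer ones among them would not show. Closest to Adgre5 among the rest were Lrp1 (0.0121), the carbonic anhydrase gene Car13 (0.0127) and B3gnt8 (0.0149). Lrp1, an endocytic receptor gene, read 7.94, 7.98 and 8.01 against 8.22, 8.31 and 8.25. Closest to Adgrg3 were the kinesin gene Kif17 (0.0121), Cerkl (0.0137) and the sorting receptor gene Sort1 (0.014), and closest to Adgrg1 were Trav13-5 (0.0371), Lrrc49 (0.0414) and Thrsp (0.0443). With 6 arrays and 19938 genes, such closeness is a description.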

How the data were processed

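Total RNA of 6 samples was measured on 6 arrays, after amplification of 10 ng. The authors deposited log2 signals per probe set, made with RMA and Affymetrix Power Tools 1.178 per the submitters' processing notes. Neither the genome build nor how probe sets were defined is given in the sources used here. Of 35556 probe sets, 21789 carried 1 symbol in the platform annotation. Those with several symbols (1621) and those without a symbol there (12146) were left out. The brightest probe set stood for a gene, without a filter, which left 19938 genes. limma 3.58.1 (R 4.3.3) compared shHLX with shControl (two-sided, Benjamini-Hochberg over all genes, threshold 0.05). The fit was tested on simulated data. Whether replicates are separate cultures is not stated, so p-values reflect only the spread among these 6 arrays, which could be technical, and 3 arrays a group limit the precision. The members, gene lists and tests were chosen with earlier results of these data known. Named were all members, Hlx, called neighbours and the 3 most alike genes of each called member, after the passing over described above. List genes past the threshold were named too (at most 4 a list, 3 for markers, by smallest p). Cxcr2 and Mpo, past that limit, and other genes named for their role or place were added with their values already seen. Alternatives tried were other normalizations, signal filters, variance models, weights, probe set choices and thresholds, a replicate block and leaving out each array. One further gene list is not reported here. Motifs were matched by exact letters. Figures were drawn with matplotlib 3.10.9.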

Additional observations from a re-analysis of the deposited data

How the results depend on the processing

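The 3 called members kept their direction in every alternative run, and Adgre5 (log2 change 0.27 to 0.32) and Adgrg1 (-0.42 to -0.34) kept their calls in all but the one that asks for a fold of at least 1.5. Adgrg3 was also not called with arrays centred on their medians (-0.17), with a replicate block (-0.19) or without any 1 array; centring moved the median gene by 0.02, and the cause was not tested. Counts of members called were 2 without any 1 array and 0 with the fold filter. With that filter the counts were 0 for the other adhesion GPCRs, 0 for the neighbours and 260 for all genes. The neighbours counted 0 without variance moderation. The cyclic AMP list counted 2 after a second quantile normalization, with arrays centred, above the 25th percentile of signal, with an intensity trend, with array weights and at an adjusted p under 0.10, and 1 to 2 without single arrays. The ligand list counted 2 above the median of signal, with an intensity trend and at an adjusted p under 0.10. All genes called numbered 2064 above the median of signal, 2261 with an intensity trend, 800 with a replicate block and 698 to 901 without single arrays (806 without shControl 2, 698 without shControl 3 and 766 without shHLX 1). No pairing by replicate number was seen. Deviations of same-numbered arrays correlated at -0.17, 0.129 and -0.152, and 0 of the 6 arrays correlated best with its own number. With 3 arrays a group, this check cannot exclude a pairing. With the block, 2 members were called. Signal over background was not available, which limits the 4 dim members.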
